A study of Mus musculus with 6 samples.

Results

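ATF4 and the genes of the amino acid response were followed in mouse embryonic stem cells that carry the R783H change in Trim71. The set was listed by name, with earlier results of these data known. It holds 39 genes, out of 27179 identifiers in the deposited count table. They are 6 transcription regulators, 7 stress effectors, 9 enzymes of serine and one-carbon metabolism, 7 other enzymes of amino acid metabolism and 10 amino acid transporters. All 39 passed the filter on low counts, which 14199 genes passed in all, so none was lost for want of reads.

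Trim71 is a TRIM-NHL protein that binds RNA, and R783H is a substitution in it that the series links to hydrocephalus. Poly(A) RNA came from cells on the ES-E14TG2a background with a FLAG tag on Trim71, and 3 libraries of R783H cells were compared with 3 of wild-type (WT) cells. Both genotypes were grown on gelatin in serum-supplemented 2i medium (CHIR99021 and PD0325901) with LIF, glutamine, penicillin and streptomycin, non-essential amino acids and beta-mercaptoethanol. Replicates bear the letters A, B and C, and the labels do not say whether a letter is a clone, a culture or a library, so p-values measure only the spread between these libraries.

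ATF4 is the main transcription factor of the integrated stress response. Kinases that sense amino acid shortage, unfolded protein in the endoplasmic reticulum, missing heme or double-stranded RNA phosphorylate the initiation factor eIF2 on its alpha subunit. Most translation then slows, while the ATF4 mRNA is translated better because of upstream reading frames in its leader. ATF4 pairs with C/EBP proteins and raises genes that import amino acids, make them and charge tRNA. Its mRNA level is therefore only part of its control, and no protein or phosphorylation was measured here. Embryonic stem cells of the mouse are known for a strong demand on glycine and one-carbon units.

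Library totals ran from 20894277 to 29079670 counts, with the 3 R783H libraries above the 3 WT libraries. Trim71 mRNA was not called different (log2 fold change 0.03, SE 0.08, edgeR adjusted p = 0.743) but was called lower with an offset for transcript length and GC content (-0.27, adjusted p = 0.00139). The change in its protein cannot be read from gene counts. The 10 markers of naive stem cells summed to 7597 to 7744 CPM (counts scaled to library size with TMM factors) in R783H and to 7688 to 7769 CPM in WT. Of these 10 markers 3 were called higher and 3 lower, and none was at 0. Markers of other cells were low in comparison, at 2.18 to 3.86 CPM in sum for 7 fibroblast genes over all libraries, and at 10.2 to 11.0 CPM in R783H against 5.14 to 7.48 CPM in WT for 6 primitive endoderm genes. Summed markers of R783H were below those of WT for 6 neural genes (62.5 to 69.5 against 93.9 to 98.3 CPM), 6 mesoderm genes (37.3 to 42.5 against 63.0 to 67.2 CPM) and 7 trophoblast genes (52.2 to 60.1 against 70.6 to 74.9 CPM). Single markers were split in the neural list, with 2 called higher and 2 lower of 4 tested, and in the trophoblast list, with 1 and 2 of 5. They went 1 way in the mesoderm list, with 0 called higher and 4 lower of 5 tested. In the primitive endoderm list 2 were called higher and 0 lower of 5 tested. Of all tested genes 33.5% were called higher and 30.9% lower. The part of these cell-state differences in the results that follow was not tested.

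More members were higher than lower in R783H cells. In edgeR's quasi-likelihood test, with p-values adjusted by the Benjamini-Hochberg method and a threshold of 0.05, 26 of the 39 members were called higher (66.7%) and 7 lower (17.9%). Of all tested genes 33.5% were called higher and 30.9% lower, so the share called higher among members was above that background. The members were chosen with earlier results of these data known, so this difference describes the chosen set and is no test of it. The median log2 fold change of R783H over WT was 0.31 for members and 0.03 for all tested genes. CPM values of every R783H library lay above every WT library for 25 members, against 35.0% of tested genes, and below every WT library for 6 members, against 33.1%. Groups did not overlap, in either direction, for 68.1% of tested genes. In bulk RNA a change in level per cell and a change in the share of cells that express a gene cannot be told apart.

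Most of these changes were modest. A rise of at least 1.5-fold was called for 13 members (15.1% of tested genes) and one of at least 2-fold for 4 members, Vldlr, Nupr1, Stc2 and Slc6a9 (5.91% of tested genes). Members took 0.675%, 0.700% and 0.660% of all counts in R783H A, B and C and 0.592%, 0.593% and 0.570% in WT A, B and C. The summed share was thus 1.16 times as large in R783H on raw totals, with no overlap between the groups. On the TMM scale the members' summed CPM was 1.10 times as large. Summed CPM was 1.19 times as large for the amino acid enzymes outside the serine pathway, 1.18 times for the regulators and 1.17 times for the transporters. Serine and one-carbon enzymes stood at 0.971 times and effectors at 0.999 times, with overlapping values. On raw totals both ratios were above 1 (1.03 and 1.06). Most of the effector sum was 1 gene, Eif4ebp1, with 365 of 472 CPM in R783H and 399 of 473 CPM in WT. It was called lower, whereas 5 of the 7 effectors were called higher.

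**Figure D1:**
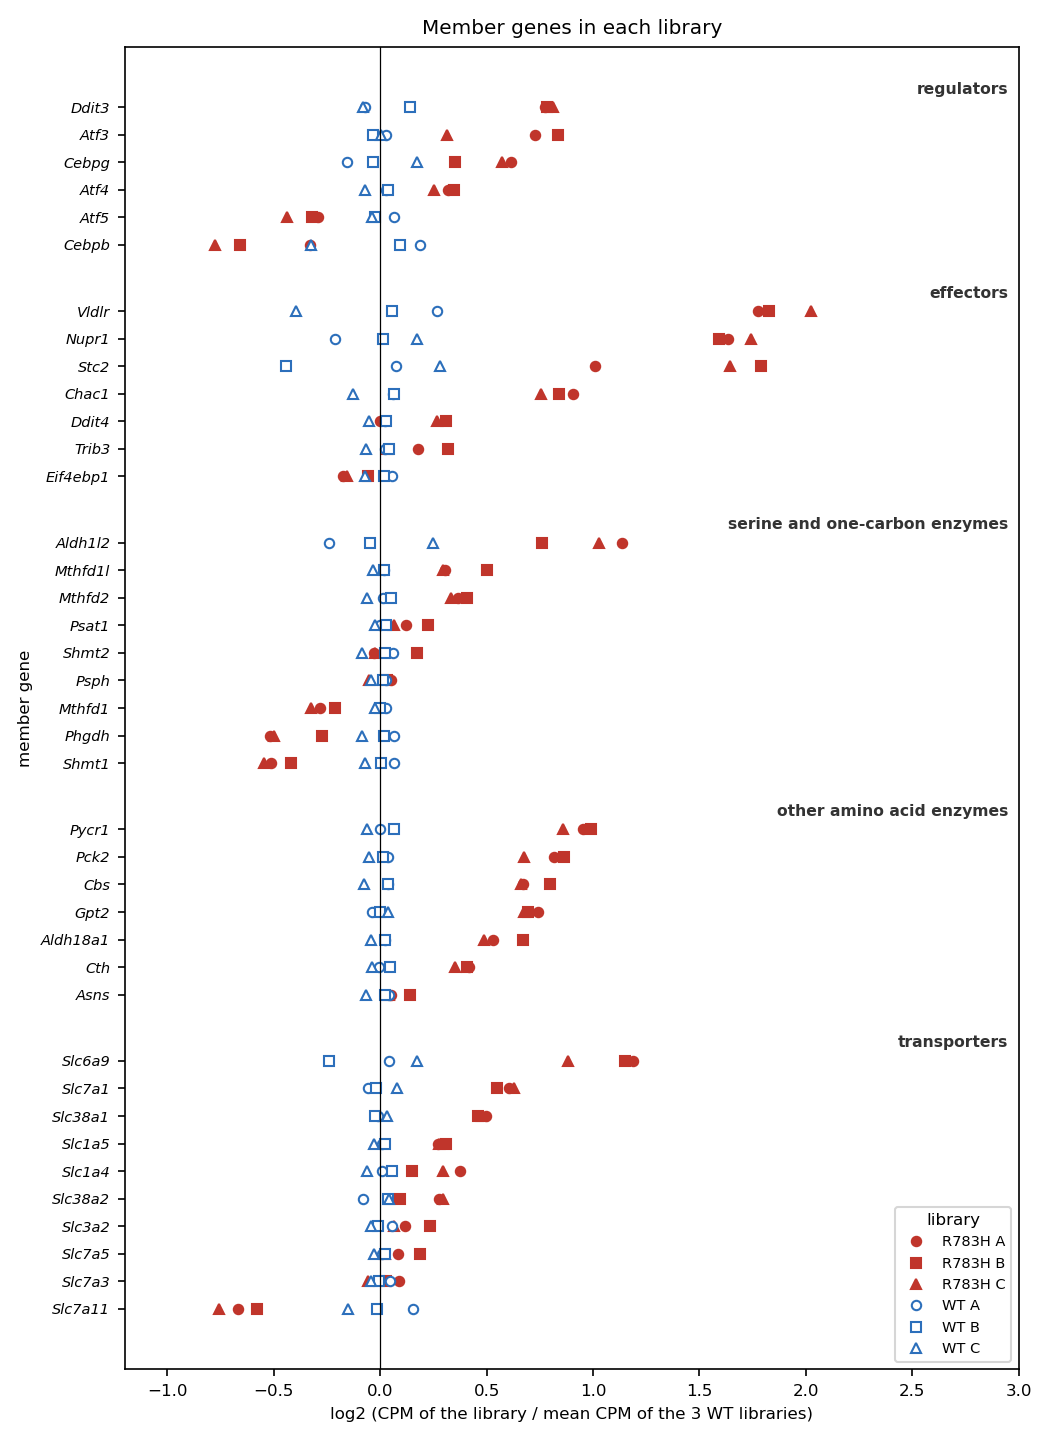
Level of each of the 39 member genes in each library, as log2 of its CPM over the mean CPM of the 3 WT libraries, ordered by role and fold change; filled red symbols are R783H libraries and open blue symbols are WT libraries A (circle), B (square) and C (triangle). R783H libraries lie to the right of all WT libraries for 25 genes and to the left for 6.

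The regulators split, with 4 of 6 called higher (66.7%) and 2 lower (33.3%), against 33.5% and 30.9% of all tested genes. Atf4 itself stood at 189, 193 and 181 CPM in R783H A, B and C and at 155, 156 and 144 CPM in WT A, B and C. All 3 R783H values were above all WT values, and the rise was 1.24-fold (log2 fold change 0.31, SE 0.05, edgeR adjusted p = 1.64e-04). Ddit3 encodes CHOP, a partner of ATF4 in prolonged stress, and was at 10.7, 10.7 and 11.0 CPM against 5.94, 6.89 and 5.91 CPM, a rise of 1.72-fold (log2 fold change 0.78, SE 0.09, edgeR adjusted p = 2.20e-05). Cebpg, which encodes a C/EBP protein that dimerizes with ATF4, read 36.2, 30.1 and 35.1 CPM against 21.1, 23.1 and 26.6 CPM (0.52, SE 0.09, edgeR adjusted p = 5.00e-04). These 3 genes were higher in each R783H library, and of them Ddit3 had the tightest R783H values. The exons of Ddit3 overlap those of Mars, a tRNA synthetase gene on the other strand.

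Atf3, a stress-induced repressor and activator downstream of ATF4, was scarce. Its raw counts were 58, 59 and 43 in R783H libraries and 24, 28 and 25 in WT libraries, a log2 difference of 0.64 (SE 0.20, edgeR adjusted p = 0.0160). The groups did not overlap, but the call was lost without R783H A (adjusted p = 0.0552), without R783H B (0.0568), without WT B (0.0540) and with DESeq2 (0.0709).

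Atf5 and Cebpb went the other way. Atf5, a relative of Atf4 that is also under translational control, was at 33.8, 33.2 and 30.6 CPM in R783H against 43.3, 40.8 and 40.3 CPM in WT. Every R783H value was below every WT value (log2 fold change -0.35, SE 0.06, edgeR adjusted p = 3.67e-04), and with an offset for transcript length and GC content the fall was smaller (-0.14, adjusted p = 0.0219). Cebpb, another dimerization partner of ATF4, was at 2.53, 2.01 and 1.86 CPM against 3.61, 3.38 and 2.53 CPM, so that the highest R783H library and the lowest WT library were about level. Its log2 fold change was -0.57 (SE 0.18, edgeR adjusted p = 0.0157), and it was no longer called without WT A (adjusted p = 0.0638), without WT B (0.0614) or with that offset (-0.17, adjusted p = 0.369). Both genes share exon sequence with neighbours on the other strand.

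The stress effectors held the steepest changes, with 5 of 7 called higher (71.4%) and 1 lower (14.3%), against 33.5% and 30.9% of all tested genes. Nupr1 encodes a small chromatin-associated stress protein and stood at 18.2, 17.7 and 19.6 CPM in R783H libraries against 5.05, 5.91 and 6.61 CPM in WT. This was a 3.15-fold rise with no overlap (log2 fold change 1.65, SE 0.10, edgeR adjusted p = 2.06e-07). Vldlr, the very low density lipoprotein receptor, was read at 89, 87 and 104 counts in R783H libraries and at 21, 22 and 14 in WT libraries, a 3.67-fold rise (1.88, SE 0.19, edgeR adjusted p = 8.40e-06). Stc2, a secreted glycoprotein, was at 4.36, 7.47 and 6.75 CPM against 2.28, 1.59 and 2.62 CPM (1.53, SE 0.23, edgeR adjusted p = 1.46e-04), and R783H A was the lowest of its group. Chac1, which breaks down glutathione, was at 14.7, 14.0 and 13.2 CPM against 8.17, 8.20 and 7.17 CPM (0.83, SE 0.09, edgeR adjusted p = 9.27e-06).

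The other effectors moved little. Ddit4, an inhibitor of mTORC1 also called REDD1, was at 31.2, 38.7 and 37.6 CPM in R783H and at 31.8, 31.8 and 30.1 CPM in WT. R783H A lay within the WT values, and the call at the edge of the threshold (log2 fold change 0.20, SE 0.08, edgeR adjusted p = 0.0494) did not survive RLE scaling, DESeq2, limma-trend or the loss of R783H B, R783H C or any WT library, with adjusted p from 0.0535 to 0.178 in those 8 fits. The length and GC offset took it to 0.32 (adjusted p = 3.25e-04). Trib3, a pseudokinase that restrains ATF4 and AKT, was at 29.3, 32.4 and 26.5 CPM against 26.4, 26.7 and 24.8 CPM. It was not called (0.18, SE 0.08, edgeR adjusted p = 0.0612), although 7 of 17 alternative fits did call it higher, with the length and GC offset at 0.29 (adjusted p = 3.97e-04). Eif4ebp1, which encodes the translation repressor 4E-BP1, was abundant, at 354, 384 and 358 CPM against 414, 403 and 379 CPM. It was called lower with overlapping groups (-0.13, SE 0.05, edgeR adjusted p = 0.0377), and without a call at library-size scaling (-0.05, adjusted p = 0.387) and without R783H A, R783H C, WT A or WT B (adjusted p from 0.0998 to 0.149).

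**Figure D2:**
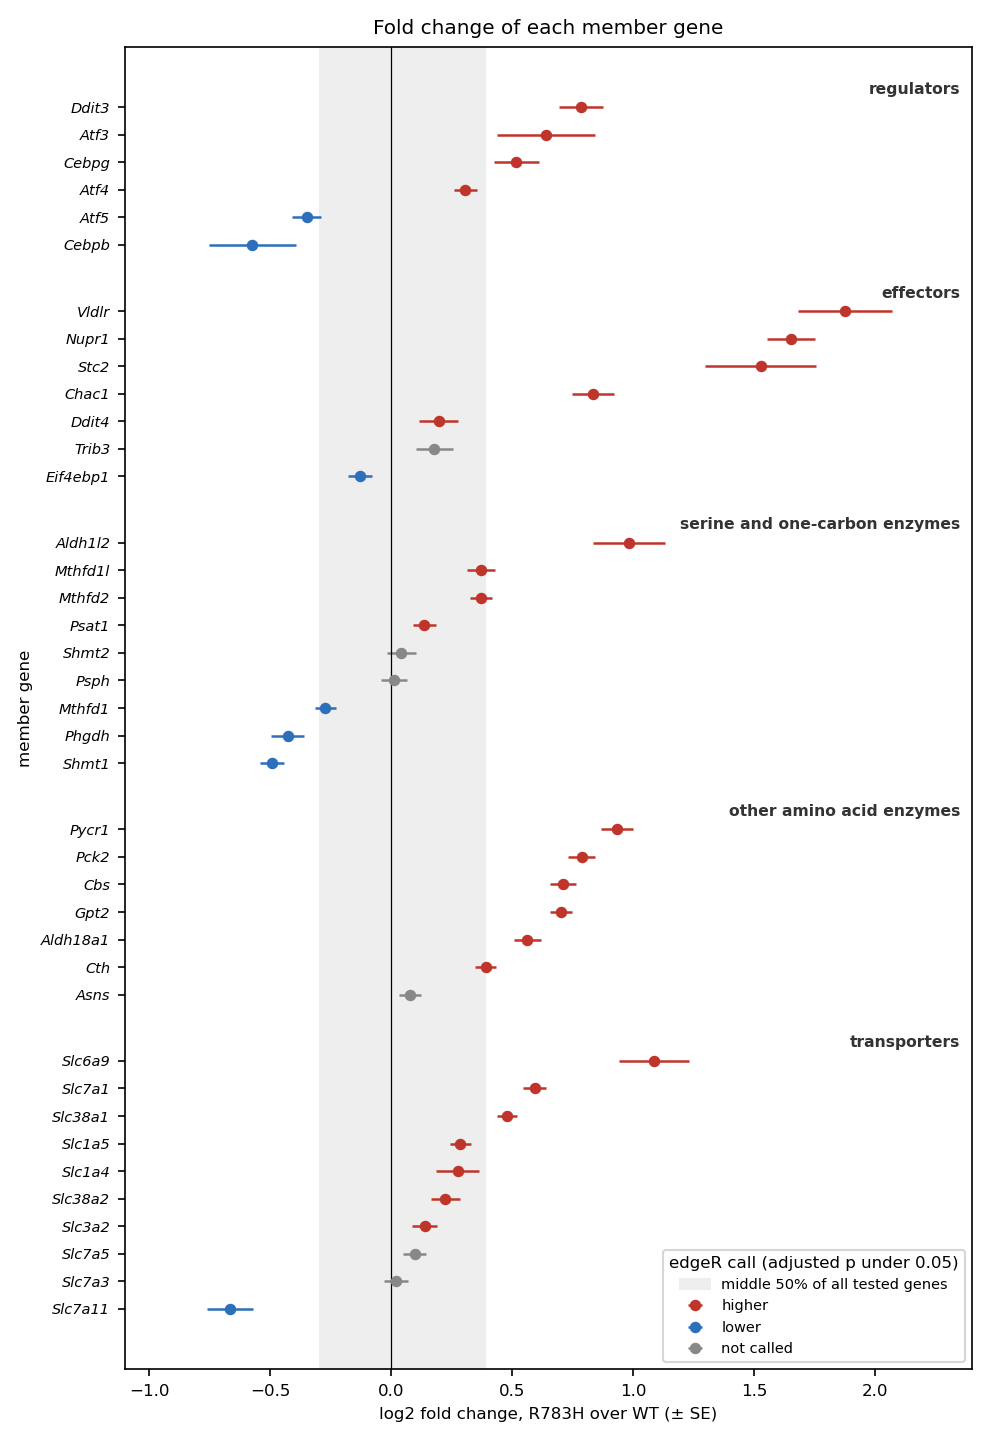
Log2 fold change of R783H over WT (x axis) with its standard error for each of the 39 member genes, grouped by role; red points were called higher, blue points lower and grey points were not called by edgeR, and the shaded band holds the middle 50% of all tested genes, -0.29 to 0.39. The largest rises are in Vldlr (1.88), Nupr1 (1.65) and Stc2 (1.53) and the lowest value is in Slc7a11 (-0.67).

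Serine and one-carbon enzymes did not move together. Of 9 members 4 were called higher (44.4%) and 3 lower (33.3%), against 33.5% and 30.9% of all tested genes. Their median was 0.04, against 0.03 for all tested genes, so as a group they were near that background. Serine is made from a glycolytic intermediate by PHGDH, PSAT1 and PSPH in turn, and the 3 genes of this chain differed in direction. Phgdh, the first and committed step, was at 66.8, 79.1 and 67.6 CPM in R783H against 100.3, 96.8 and 90.2 CPM in WT, lower in every library (log2 fold change -0.43, SE 0.07, edgeR adjusted p = 2.41e-04). Psat1 was at 407, 437 and 392 CPM against 375, 381 and 368 CPM (0.14, SE 0.05, edgeR adjusted p = 0.0236), without overlap but with a call lost in 7 of 17 alternatives, in which its adjusted p ran up to 0.0862. Psph was level at 44.2, 43.6 and 41.1 CPM against 43.4, 43.1 and 41.4 CPM (0.01, SE 0.05, edgeR adjusted p = 0.875). Phgdh has a near-identical pseudogene, Gm7901, so its counts are uncertain.

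Of the folate enzymes among the members, 3 of 4 mitochondrial ones were called higher and both cytosolic ones lower. Of all tested genes 33.5% were called higher and 30.9% lower. Aldh1l1, a cytosolic enzyme outside the member set, was called higher and is given below. In the mitochondrion SHMT2, MTHFD2 and MTHFD1L turn serine into formate, and ALDH1L2 oxidizes the folate-bound unit. In the cytosol SHMT1 and MTHFD1 catalyze the matching steps. Mthfd2 was at 213, 219 and 208 CPM in R783H against 167, 171 and 158 CPM in WT (log2 fold change 0.37, SE 0.05, edgeR adjusted p = 3.07e-05). Mthfd1l was at 209, 239.8 and 207 CPM against 171, 171 and 165 CPM (0.37, SE 0.06, edgeR adjusted p = 1.88e-04). Both were thus higher in each R783H library by a like amount. Aldh1l2 was read at 209, 152 and 191 counts in R783H libraries and at 54, 75 and 80 in WT libraries (0.98, SE 0.15, edgeR adjusted p = 1.56e-04). Shmt2 overlapped between the groups, at 296, 339 and 296 CPM against 314, 306 and 284 CPM (0.04, SE 0.06, edgeR adjusted p = 0.560). It had no call with TMM scaling, and R783H B was its highest library. The length and GC offset gave it a call as higher (0.12, adjusted p = 0.0103).

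The cytosolic pair was lower. Shmt1 was at 213, 227 and 208 CPM in R783H against 318, 304 and 289 CPM in WT (log2 fold change -0.49, SE 0.05, edgeR adjusted p = 7.52e-06). Mthfd1, which joins 3 activities in 1 protein, was at 449.6, 472 and 436 CPM against 558, 546 and 537 CPM (-0.27, SE 0.04, edgeR adjusted p = 1.99e-04). Neither gene overlapped between the groups, and both were called lower in all 17 alternatives.

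A ratio of 2 genes inside a library does not depend on scaling, so 8 such ratios, picked after the values were seen, were compared by an exact two-sided permutation test over the libraries. With 3 libraries in each group the smallest p this test can give is 0.10, so none could pass 0.05. The log2 count ratio of Shmt2 to Shmt1 was 0.47, 0.58 and 0.51 in R783H A, B and C and -0.02, 0.0064 and -0.03 in WT, a difference of 0.53 (SE 0.03, exact permutation p = 0.10, 0.114 after Benjamini-Hochberg adjustment over the 8 ratios). Mthfd2 to Mthfd1 differed by 0.64 (SE 0.03) and Mthfd1l to Mthfd1 by 0.64 (SE 0.04), each with the same p. Within the serine chain, Psat1 to Phgdh differed by 0.57 (SE 0.05) and Psph to Phgdh by 0.44 (SE 0.08), again with complete separation. The mitochondrial form was therefore higher relative to its cytosolic counterpart by 1.45 to 1.56 times in these 3 pairs. Aldh1l2 to Aldh1l1 went the other way, with a difference of -0.50 (SE 0.27, exact permutation p = 0.10), since the cytosolic Aldh1l1 rose more than Aldh1l2.

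**Figure D3:**
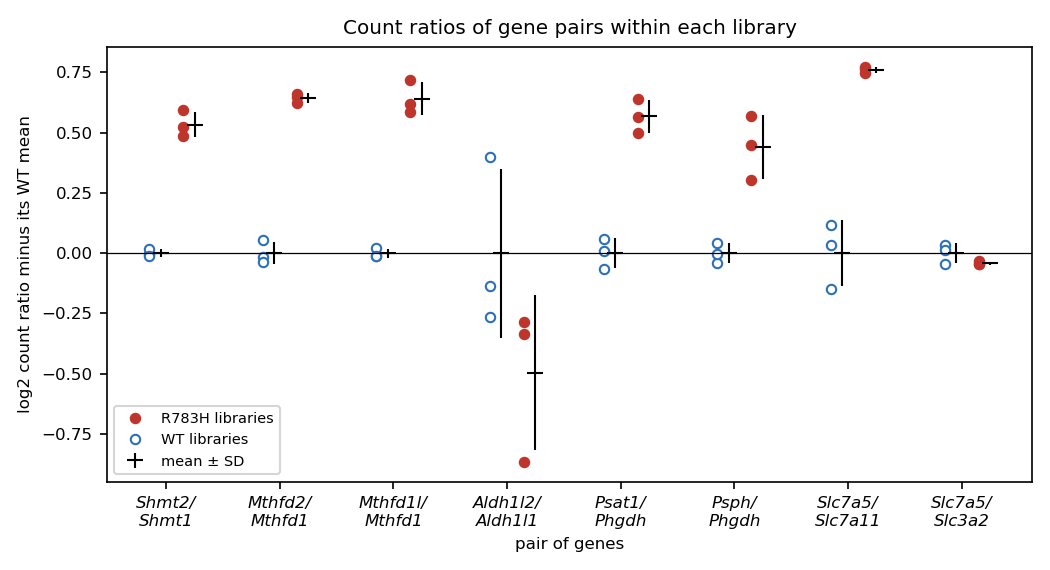
Log2 ratio of the counts of 2 genes within each library, minus the mean of that ratio in WT, for 8 pairs on the x axis; filled red points are R783H libraries, open blue points are WT libraries, and black marks give the mean ± SD of each group. Of 4 pairs of a mitochondrial over a cytosolic folate enzyme at the left, 3 lie 0.53 to 0.64 higher in R783H and Aldh1l2 over Aldh1l1 lies 0.50 lower, while Slc7a5 over Slc3a2 differs by -0.04 with overlap.

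Enzymes for other amino acids rose nearly throughout, with 6 of 7 called higher (85.7%) and 0 lower. The shares over all tested genes were 33.5% and 30.9%. All 7 fold changes were positive, and DESeq2 also called 6 higher. Proline is built from glutamate by ALDH18A1 and PYCR1. Pycr1 was at 33.4, 34.2 and 31.3 CPM in R783H against 17.2, 18.0 and 16.5 CPM in WT, a 1.91-fold rise (log2 fold change 0.93, SE 0.06, edgeR adjusted p = 5.09e-07). Aldh18a1 was at 152, 168 and 148 CPM against 107, 107 and 102 CPM (0.56, SE 0.05, edgeR adjusted p = 4.96e-06). Both proline genes were clear of the WT values in each library. Pck2, the mitochondrial form of phosphoenolpyruvate carboxykinase, was at 106, 109 and 96.0 CPM against 61.7, 60.6 and 58.0 CPM (0.79, SE 0.06, edgeR adjusted p = 7.20e-07).

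Cbs and Cth act in turn to convert homocysteine to cysteine. Cbs was at 126, 137 and 125 CPM in R783H against 81.1, 81.1 and 75.1 CPM in WT (log2 fold change 0.71, SE 0.05, edgeR adjusted p = 9.38e-07). Cth was at 192, 190.5 and 183 CPM against 143, 148 and 139.7 CPM (0.39, SE 0.04, edgeR adjusted p = 1.42e-05). Gpt2, the mitochondrial alanine aminotransferase, was at 131, 127 and 126 CPM against 76.7, 78.8 and 80.7 CPM (0.70, SE 0.04, edgeR adjusted p = 2.99e-07). These 3 genes were called higher in all 17 alternatives.

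Asns, asparagine synthetase and a standard reporter of ATF4 activity, was the exception. It was the most abundant member, at 1204, 1279 and 1197 CPM in R783H and 1198, 1181 and 1110.4 CPM in WT. R783H C lay just under WT A, and the difference was not called (log2 fold change 0.08, SE 0.05, edgeR adjusted p = 0.161). Scaling by library size alone (0.16, adjusted p = 0.00686) and the length and GC offset, without (0.10, adjusted p = 0.0249) and with a replicate term (0.10, adjusted p = 0.0289), did call it.

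Of 10 transporters 7 were called higher and 1 lower, against 33.5% and 30.9% of all tested genes. Slc6a9, the glycine transporter GLYT1, was at 6.25, 6.10 and 5.06 CPM in R783H against 2.82, 2.32 and 3.09 CPM in WT, a 2.12-fold rise (log2 fold change 1.09, SE 0.14, edgeR adjusted p = 5.55e-05). Slc7a1, the cationic amino acid transporter CAT1, was at 267, 257 and 271 CPM against 169, 173 and 185 CPM (0.59, SE 0.05, edgeR adjusted p = 1.30e-06). Its relative Slc7a3, CAT3, was level at 129.8, 124 and 118 CPM against 126, 122 and 119 CPM (0.02, SE 0.05, edgeR adjusted p = 0.748). The 2 cationic transporters thus differed in whether they passed the test, but the difference between them was not tested.

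The neutral amino acid carriers were higher by smaller amounts. Slc38a1 (SNAT1) was at 211, 206 and 209 CPM in R783H against 149, 147 and 153 CPM in WT (log2 fold change 0.48, SE 0.04, edgeR adjusted p = 1.97e-06). Slc1a5 (ASCT2), a glutamine exchanger, was at 76.7, 78.8 and 77.0 CPM against 63.8, 64.5 and 62.2 CPM (0.29, SE 0.05, edgeR adjusted p = 1.99e-04). Both sets of values were narrow and did not overlap, although the length and GC offset took Slc38a1 to 0.21 (adjusted p = 7.02e-05). Slc1a4 (ASCT1) was at 11.5, 9.90 and 10.9 CPM against 8.96, 9.26 and 8.53 CPM (0.28, SE 0.09, edgeR adjusted p = 0.0178), and lost its call without R783H A (adjusted p = 0.0903), without WT C (0.0662) and with DESeq2 (0.0718). Slc38a2 (SNAT2), a carrier induced when amino acids are short, was at 276, 243 and 280.2 CPM against 216, 234 and 235 CPM (0.22, SE 0.06, edgeR adjusted p = 0.00630). R783H B was its lowest R783H library, and with the length and GC offset its fold change was 0.0050 (adjusted p = 0.907).

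SLC3A2 is the heavy chain that carries either SLC7A5 (LAT1), which imports large neutral amino acids, or SLC7A11 (xCT), which imports cystine. Slc3a2 was at 354, 384 and 341 CPM in R783H against 339, 324 and 316 CPM in WT (log2 fold change 0.14, SE 0.05, edgeR adjusted p = 0.0321), with a call lost in 6 of 17 alternatives. Slc7a5 was at 615, 662 and 589 CPM against 585, 590.2 and 569 CPM and was not called (0.10, SE 0.05, edgeR adjusted p = 0.0937). Library-size scaling (0.18, adjusted p = 0.00487) and the length and GC offset, without (adjusted p = 0.0203) and with a replicate term (adjusted p = 0.0304), did call it higher. Slc7a11 was lower in every R783H library, at 8.32, 8.84 and 7.83 CPM against 14.7, 13.1 and 11.9 CPM (-0.67, SE 0.10, edgeR adjusted p = 1.06e-04). It was the largest fall among the members and the single transporter called lower. The log2 count ratio of Slc7a5 to Slc7a11 was 0.76 higher in R783H (SE 0.08, exact permutation p = 0.10), and that of Slc7a5 to Slc3a2 differed by -0.04 (SE 0.02, exact permutation p = 0.30).

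The size of the change varied with abundance. Across the 39 members Spearman's rho of the log2 fold change with mean CPM was -0.46, against -0.16 across all 14199 tested genes. These are descriptions over genes that share the same libraries. Of all tested genes, at any abundance, 33.5% were called higher and 30.9% lower. Of the 10 least abundant members (1.49 to 10.9 CPM) 8 were called higher and 2 lower, and their median was 0.81. Of the 10 most abundant (220.2 to 1195 CPM) 4 were higher and 3 lower, near the shares of all genes, and their median was 0.09. Among these 10, Asns, Slc7a5, Psat1, Slc3a2 and Shmt2 had log2 fold changes of 0.14 or less, all above 0. The rest went either way, with Slc7a1 at 0.59, Slc38a2 at 0.22, Eif4ebp1 at -0.13, Mthfd1 at -0.27 and Shmt1 at -0.49. Per kilobase of transcript, mean levels in WT were 577 for Asns, 165 for Slc7a5 and 75.0 for Atf4 on the CPM per kilobase scale, against 4.79 for Chac1, 2.39 for Nupr1 and 0.108 for Vldlr.

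Transcript length moved with the fold changes of the whole series, with a Spearman's rho of 0.26 across 13067 genes and 0.30 across the members. Members were shorter than the average gene, with a median of 2858 nt against 3364 nt for tested genes. With an offset for length and GC content 29 members were called higher and 6 lower, where 31.2% and 37.5% of genes were called in those directions. The median of members was then 0.32 and that of all genes -0.03. Among long transcripts, Slc7a1 (7179 nt) went from 0.59 to 0.34 and Vldlr (7971 nt) from 1.88 to 1.58 with the offset, whereas Slc7a11 (9223 nt) went from -0.67 to -1.02.

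**Figure D4:**
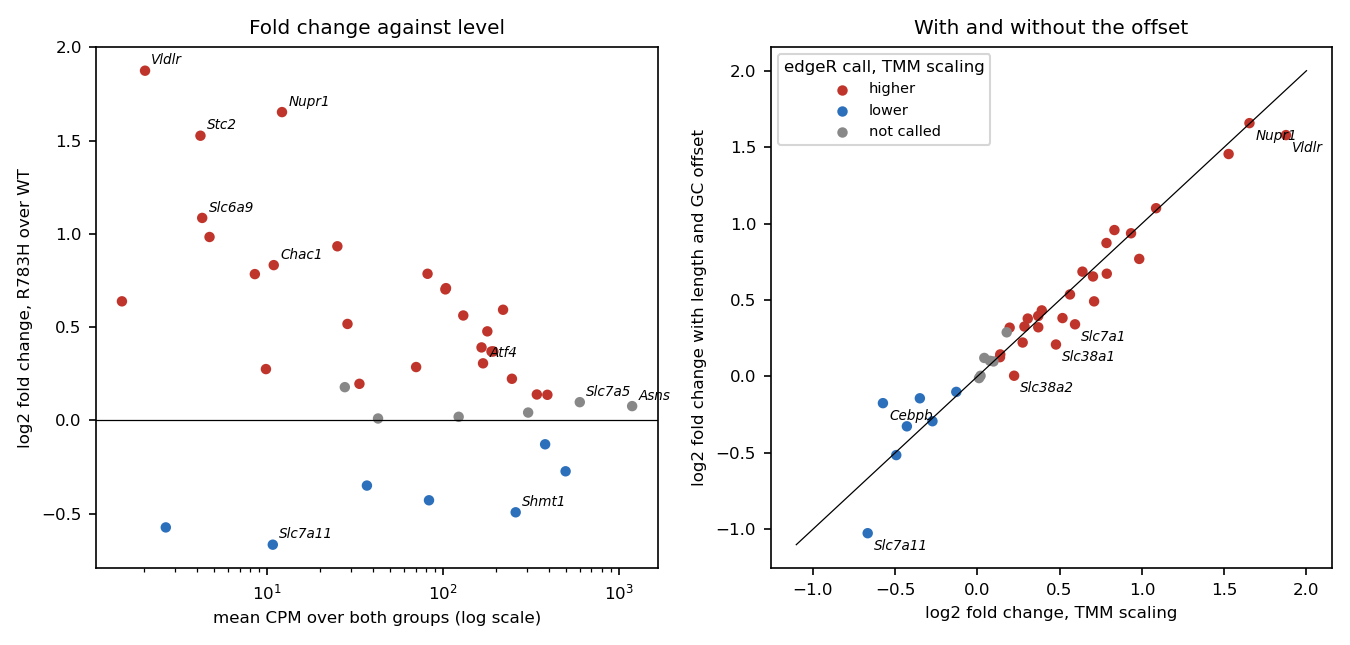
Left, log2 fold change of R783H over WT against the mean CPM of both groups (log axis) for the 39 members; right, the log2 fold change with an offset for transcript length and GC content against that without it, with the line of equality. Red, blue and grey mark members called higher, lower and not called with TMM scaling; the rises above 1 on the left belong to genes under 20 CPM, and Slc38a2 on the right lies at 0.0050 with the offset.

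Promoters were searched for the C/EBP-ATF response element, the site at which ATF4 dimers are known to bind, in the form TGATGNAA or TTNCATCA on the other strand. RefSeq's promoter table for GRCm38.p6 held windows for 32 of the 39 members, from 250 bases before to 50 after each start. Of these 32 genes 10 held the element (31.2%), against 2.67% of 10766 tested genes and 4.51% of all 27025 genes with a window. The members were chosen as ATF4 response genes, so this difference describes the choice. In the stricter form TGATGCAA the shares were 7 of 32 members (21.9%) and 0.687% of tested genes. With the 250 bases before the start alone, 8 members held the first form. The sites are printed because members called higher, not called and called lower all held the element. Capitals mark the element, sequences run 5′ to 3′ on the strand of the gene, and stretches annotated as exon in GENCODE M21 are cut short.

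Chac1: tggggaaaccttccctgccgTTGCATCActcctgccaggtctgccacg
Atf3: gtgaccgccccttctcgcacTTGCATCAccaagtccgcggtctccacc
Nupr1: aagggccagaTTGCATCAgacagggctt
Vldlr: gcagcaatagTTGCATCAgcgctcctag
Pycr1: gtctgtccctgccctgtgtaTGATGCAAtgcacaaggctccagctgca
Pck2: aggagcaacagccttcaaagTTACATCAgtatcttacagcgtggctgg
Slc1a4: gcctcctgcgTTGCATCAtctccagcct
Asns: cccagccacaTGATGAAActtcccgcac
Trib3: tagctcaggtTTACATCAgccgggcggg
Slc7a11: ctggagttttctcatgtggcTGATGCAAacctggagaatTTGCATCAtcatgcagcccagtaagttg

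In GRCm38 the Chac1 stretch is chr2:119351029-119351076 on the plus strand, in no gene of GENCODE M21 or RefSeq, and its element begins 193 bases before the start. The Atf3 stretch is chr1:191183416-191183463 (minus strand, 110 bases before a start and inside a non-exonic part of Atf3 in GENCODE M21), and that of Nupr1 is chr7:126625563-126625590 (minus, 110 before the start, in an annotated exon of Nupr1). For Vldlr it is chr19:27216810-27216837 (plus, 200 before, in an annotated exon of Vldlr) and for Pycr1 chr11:120643824-120643871 (minus, 103 before, outside genes of GENCODE M21 and RefSeq). For Pck2 it is chr14:55540143-55540190 (plus, 103 before, inside the antisense gene Gm10876 but in none of its exons). For Slc1a4 it is chr11:20332700-20332727 (minus, 4 before, reaching into an annotated exon of Slc1a4). The Asns stretch is chr6:7693215-7693242 (minus, 23 before) and that of Trib3 chr2:152344029-152344056 (minus, 14 bases after the start), both reaching into annotated exons. That of Slc7a11 is chr3:50443633-50443699 (minus), upstream of the Slc7a11 gene of GENCODE M21 but inside the longer span that RefSeq gives Slc7a11, with elements beginning 66 and 47 bases before the start.

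Of the 22 members called higher that had a window, 7 held the element, and of the 10 other members 3 did, namely Asns, Trib3 and Slc7a11. The median log2 fold change was 0.71 for the 10 members with the element and 0.26 for the 22 without it. Slc7a11 carries 2 copies and was called lower, so an element near the start was found in members of either direction. These are counts of letters in a short window and no binding was measured.

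Genes that act upstream of ATF4 were not uniformly higher. Of 17 genes for eIF2 kinases, their regulators, phosphatase subunits, eIF2 and its exchange factor eIF2B, 6 were called higher (35.3%) and 8 lower (47.1%). Their median was -0.09. The share called higher was near the 33.5% of all tested genes, and the share called lower was above their 30.9%. The 3 largest changes were in Eif2b4 (log2 fold change -0.73, SE 0.06, from 144 to 87.4 CPM), Eif2s1, which encodes eIF2 alpha itself (-0.57, SE 0.04, from 305 to 206 CPM), and Eif2b2 (-0.54, SE 0.06, from 96.4 to 66.1 CPM). The kinases GCN2 and PERK, chosen after their values were seen, were slightly higher, with 0.32 (SE 0.05) for Eif2ak4 and 0.26 (SE 0.06) for Eif2ak3. With the length and GC offset each kinase gene stood at 0.15 and was still called higher. Subunits of the exchange factor and of eIF2 thus made up the lower calls together with the kinase gene Eif2ak1. By edgeR without the offset, adjusted p for the 5 genes given with an SE ran from 5.02e-07 to 0.00187.

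Genes of the endoplasmic reticulum that other branches of the unfolded protein response control were mostly lower. Of 16 genes on that list 10 were called lower (62.5%) and 2 higher (12.5%), against 30.9% and 33.5% of all tested genes. The median of the list was -0.40. Hspa5, encoding the chaperone BiP, was at 339, 343 and 346 CPM in R783H against 639, 638 and 639 CPM in WT (-0.90 on the log2 scale, SE 0.04, edgeR adjusted p = 3.28e-08). Manf (-0.80, SE 0.06) and Pdia6 (-0.64, SE 0.05) were lower too, without overlap. Ddit3 and Chac1, which the ATF4 branch controls and which are named here after their values were seen, were higher in the libraries in which Hspa5 was lower. Of all 39 members 26 were called higher and 7 lower. Trib3 and Asns were among those not called, and Atf5 and Slc7a11 among the lower. A contrast between the branches was not tested.

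Other reported ATF4 targets were mixed, with more called higher than lower. Of 24 genes listed 23 were tested, and 11 were called higher (47.8%) and 4 lower (17.4%). The shares over all tested genes were 33.5% and 30.9%. The median of the list was 0.10, against 0.03 for all tested genes. Ndrg1 (log2 fold change 1.53, SE 0.10), the stress cytokine Gdf15 (1.49, SE 0.12) and Vegfa (1.22, SE 0.10) had the largest changes, and each was higher in all 3 R783H libraries. Gdf15 is also a p53 target, and Ndrg1 and Vegfa also respond to low oxygen. Sesn2, a leucine sensor, and the tRNA synthetase gene Wars were called lower (-0.25, SE 0.05 and -0.43, SE 0.05), while Sars rose (0.50, SE 0.06); these 3 were chosen after their values were seen. By edgeR, adjusted p for the 6 ran from 4.55e-07 to 6.88e-04.

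Folate, glycine and methionine genes outside the member set were mostly lower. Of 21 genes 13 were called lower (61.9%) and 4 higher (19.0%), against 30.9% and 33.5% of all tested genes. The median of these 21 was -0.36. Mat2a, which makes S-adenosylmethionine, was at 296, 281 and 280.3 CPM in R783H against 515, 516 and 518 CPM in WT (log2 fold change -0.85, SE 0.04, edgeR adjusted p = 5.63e-08). Tdh, the threonine dehydrogenase that supplies glycine in mouse stem cells and was chosen after its values were seen, was at 746, 827 and 746 CPM against 1046, 1004 and 991 CPM (-0.39, SE 0.05, edgeR adjusted p = 3.91e-05). Both genes were lower in every R783H library. Aldh1l1, the cytosolic relative of Aldh1l2, rose 2.80-fold, from 28.9, 30.2 and 25.6 CPM in WT to 76.3, 87.8 and 73.2 CPM in R783H (1.48, SE 0.08, edgeR adjusted p = 1.24e-07). Gnmt, glycine N-methyltransferase, rose by 1.24 (SE 0.19, edgeR adjusted p = 1.43e-04) at 28 counts or fewer in each WT library.

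Of the remaining lists, the enzymes were called lower more often than higher and the carriers about equally often in either direction. Of 17 other enzymes of amino acid metabolism 1 was called higher (5.88%) and 6 lower (35.3%), against 33.5% and 30.9% of all tested genes. Pycrl (-0.70, SE 0.07), Glul (-0.62, SE 0.05) and Gclm (-0.56, SE 0.06) had the largest changes of these enzymes. Pycrl is a relative of Pycr1, and Glul makes glutamine. Of 18 other amino acid transporters tested, out of 25 listed, 7 were called higher (38.9%) and 8 lower (44.4%). The largest changes were Slc38a5 (-2.30, SE 0.27, raw counts 7, 11 and 16 in R783H libraries and 42, 42 and 43 in WT libraries), the glutamate carrier Slc1a1 (1.63, SE 0.16) and Slc38a6 (1.32, SE 0.12). The calls in this list were thus near evenly divided, unlike the 7 to 1 among member transporters, a contrast that was not tested.

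Genes that relay amino acid supply to mTORC1 were called higher for 13 (46.4%) and lower for 8 (28.6%) of 28 tested. The shares over all tested genes were 33.5% and 30.9%. The median of this list was 0.15. The largest rises were in Fnip2 (log2 fold change 1.07, SE 0.07), Rragd (0.95, SE 0.06) and Fnip1 (0.80, SE 0.08). FNIP1 and FNIP2 bind folliculin and RagD is a small GTPase, and these proteins act together at the lysosome. By edgeR, adjusted p for these 3 ran from 2.50e-07 to 7.90e-06. With the length and GC offset the number called higher in this list was 8, where 31.2% of all genes were called higher. The list's share was then no longer above that of all genes.

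**Figure D5:**
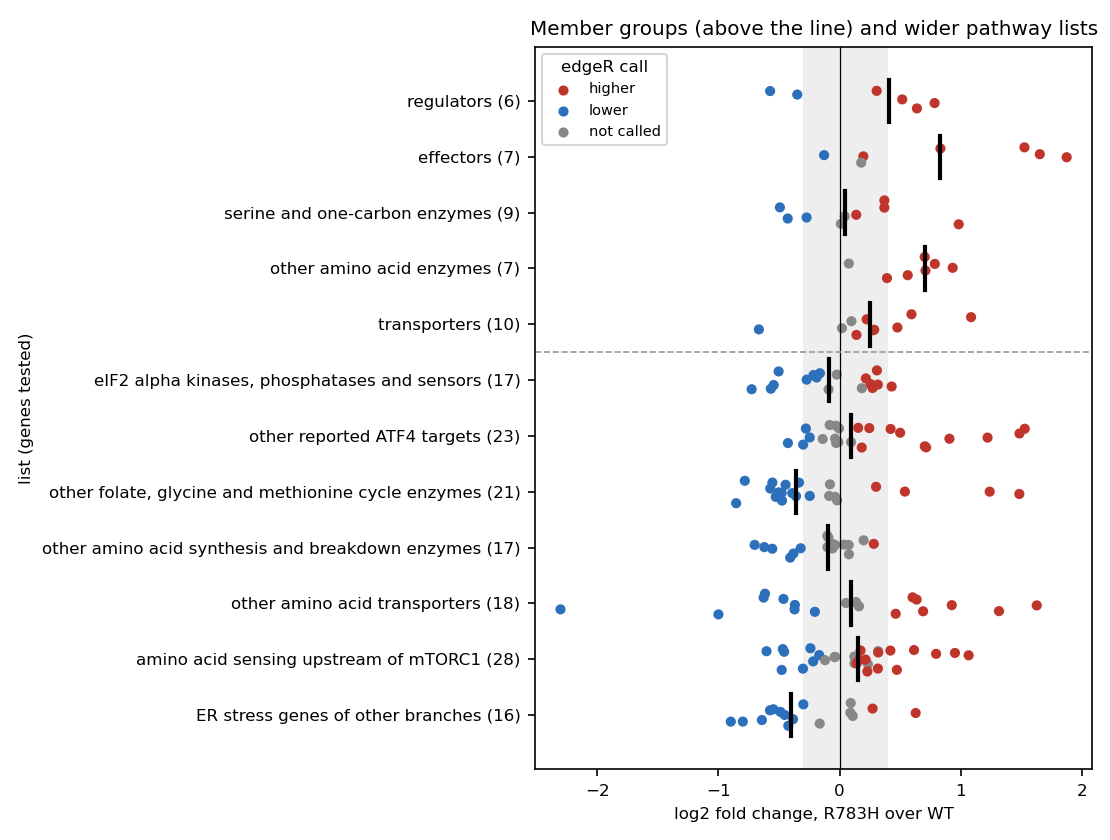
Log2 fold change of R783H over WT (x axis) for each tested gene of the 5 member groups (above the dashed line) and of 7 wider pathway lists (below it), with the number of genes tested in brackets; black bars are medians, red, blue and grey points were called higher, lower and not called by edgeR, and the band holds the middle 50% of all tested genes. Medians run from -0.40 for endoplasmic reticulum genes to 0.83 for the member effectors.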

How the data were processed

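Poly(A) RNA was sequenced from 3 R783H and 3 WT libraries. The authors deposited raw counts per Entrez gene, 1 column per alignment file per the file header. HISAT2, SAMtools, CASAVA 1.4 and the build mm10 are named in the submitters' processing notes. The counting tool, annotation and strand setting are not given in the sources used here, so reads of overlapping genes cannot be told apart. Among members 11 share exon sequence with another gene (Aldh1l2, Atf5, Cebpb, Cebpg, Ddit3, Mthfd1, Pck2, Psph, Shmt1, Shmt2 and Slc6a9), and of the other 28 members 21 were called higher and 3 lower. Of the further genes named, Aldh1l1, Eif2ak1, Eif2ak3, Eif2b4, Gclm, Glul, Manf, Mat2a, Ndrg1, Pdia6, Slc1a1, Tdh and Trim71 also overlap others, and Slc38a6 and Mat2a have near-identical stretches elsewhere, as do the members Phgdh and Slc3a2.

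Symbols came from RefSeq (GRCm38.p6), which matched 25275 of 27179 identifiers. Samples were grouped by title. Genes passing filterByExpr (minimum count 10, minimum total 15) were scaled by TMM and tested with edgeR 4.0.16 in R 4.3.3, with group as the single term. A call is an adjusted p under 0.05, Benjamini-Hochberg over 14199 genes. The standard error (SE) is the log2 fold change divided by the square root of F. A level of 3 counts equals 0.0998 to 0.149 CPM. Counting error understates the spread, which came from replicate libraries (common coefficient of variation 5.45%). In simulated data with 14199 genes, 100 were changed 2-fold, 100 were changed 1.5-fold and no others were changed. The R783H against WT test called 89 and 77 of these, with 14 calls among unchanged genes. In the real data 64.5% of genes were called, a far larger share, so these rates need not hold there. Length and GC content are those of each gene's longest transcript in GENCODE M21. Alternatives were RLE, upper quartile and library-size scaling, other filters, DESeq2 1.42.0, limma-trend 3.58.1, a length and GC offset, equal depth, a replicate term and leaving out each library. Pathway genes were named as the 3 largest called changes of a list. The members and lists were chosen with earlier results of these data known.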

Additional observations from a re-analysis of the deposited data

How the results depend on the processing

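Under 17 alternatives the members called higher numbered 21 (DESeq2) to 29 (library size alone, and the length and GC offset), and those called lower 5 to 7. Leaving out a library gave 22 to 26 higher and 5 to 7 lower, with 22 without R783H A, R783H B, WT B or WT C. Of the 26 members called higher 20 kept their call and direction in all 17. Same-lettered libraries did not deviate together (correlations -0.07, 0.0068 and 0.09 for A, B and C), so the letters were not taken as pairs. With the replicate block 27 members were higher and 7 lower, and 4839 and 4421 of all genes, and Trib3 was the member whose call changed. Psph changed sign with RLE factors and DESeq2 (-0.011 each), with the length and GC offset (-0.010, and -0.011 with the replicate block) and among fits without a library (-0.024 to 0.031). Slc7a3 did so with RLE factors and DESeq2 (-0.0019 each) and without a library (-0.028 to 0.046). Without a library Shmt2 ranged from -0.049 (R783H B left out) to 0.071 (WT A left out), and Trim71 from -0.022 to 0.13 without a library, and was called lower at -0.27 with the offset, with or without the replicate block. The median log2 fold change of all tested genes was -0.033 with the offset and -0.034 with the offset and block. Counts in the wider lists that moved by over 1.5 times were the amino acid sensing genes called higher (8 with the offset, also with the block), other amino acid enzymes called higher (4 by library size alone, 3 with the offset and also with the block), endoplasmic reticulum genes called higher (5 by library size alone) and other ATF4 targets called lower (4 to 8 without a library, 8 without R783H B). The cause of these shifts was not tested. Every pathway gene named as largest in its list kept its call in each alternative in which it was tested. Depth limits Atf3, Cebpb and Vldlr most, each under 105 counts in every library.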
